A study of Arabidopsis thaliana with 12 samples.

Results

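The comparison described here sets the DPB2 overexpressor line DPB2oe1.11.5 of Arabidopsis thaliana, with 3 libraries, against wild-type Col-0, with 3 libraries. These 6 of 12 libraries were chosen by their genotype label, and all 33602 loci were considered, of which 19924 passed the filter on low counts over the 12 libraries and were tested. The other 6 libraries belong to a further overexpressor line, DPB2oe12.1.5, and to abo4-1, an allele of the catalytic subunit gene POL2A that the design text of the series treats as a knock-out, and they enter the same model and a few direct contrasts. Every group was grown without treatment to Boyes stage 1.02 on 0.5x MS medium at 20 °C, with 65% humidity and 16 h of light. DPB2oe1.11.5 is 1 transgenic line, and the labels give neither the promoter of the transgene nor its insertion site. Its library titles end the line name in 2 where the source and genotype labels end it in 5, and the genotype label is used. The labels do not say whether the replicates were grown separately, so p-values measure only the spread between these libraries, which may be technical.

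DNA polymerase epsilon copies the leading strand during S phase, and DPB2 is its regulatory B subunit beside the catalytic POL2A and the small histone-fold subunits. Plant cells answer stalled or broken forks through the kinases ATM and ATR and the transcription factor SOG1, which turns on repair genes and inhibitors of cyclin-dependent kinases. The series title poses the question of transcript changes under a lack of polymerase epsilon function, and this line is 1 of the genotypes used for it.

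The 6 libraries held 10902547 to 29456111 counted reads. DPB2oe1.11.5 replicate 2 stood apart from its replicates in time-of-day transcripts. LHY, a clock gene that peaks at dawn, measured 6.61, 217 and 8.97 counts per 1000000 reads (CPM) in the line and 48.1, 7.44 and 7.23 CPM in Col-0, so that replicate 2 of the line and replicate 1 of Col-0 were the high libraries of their groups. The harvest hour is not given in the labels. Markers of photosystem nuclear genes, roots, phloem and trichomes had lower medians in the line: the 4 photosystem markers summed to 31988, 40816 and 34842 CPM against 66140, 62613 and 63770 CPM in Col-0, and the 5 root markers summed to 131, 313 and 122 against 296, 140.5 and 123 CPM. The 3 phloem markers summed to 186, 164 and 174 against 302, 267 and 289 CPM, with a median log2 difference of -0.46, and the 3 trichome markers summed to 43.3, 46 and 43.9 against 52.6, 51.6 and 56.6 CPM. The photosystem, phloem and trichome sums did not overlap between the groups, the root sums did, and none of the 4 pollen markers matched passed the filter. Senescence, guard cell, xylem and meristem markers also had medians below 0, of -0.637, -0.215, -0.170 and -0.053. Seed, petal and carpel, and etiolated markers had medians above 0, of 0.719, 0.435 and 0.072. The part of these markers in the results was not tested. In such bulk samples fewer cells of a type and less RNA per cell cannot be told apart. The 10 most abundant loci took 11.06% ± 0.424 of the reads in the line and 16.38% ± 0.325 in Col-0 (SD, n = 3; two-sided exact permutation p = 0.1, the smallest that 3 against 3 libraries allow). The share of chloroplast-encoded loci differed by less than the spread between libraries (0.529% ± 0.258 against 0.555% ± 0.295, exact permutation p = 0.9).

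The overexpressed gene was checked first. DPB2 (AT5G22110, chromosome 5, 7330825 to 7334282, minus strand, in the TAIR10.1 annotation) measured 118, 106 and 117 CPM in the line and 2.79, 1.76 and 4.14 CPM in Col-0. All 3 libraries of the line lay far above the 3 wild-type ones. The log2 fold change was 5.25 ± 0.24 (SE; adjusted p = 1.76e-07), by edgeR's quasi-likelihood test with Benjamini-Hochberg adjustment over all loci tested, which gives all adjusted p-values here. The counts do not separate the transgene from the endogenous gene. POL2A, the catalytic subunit, measured 33.4, 24.3 and 30.7 CPM against 17, 16.2 and 15.7 CPM, without overlap, and rose by 0.84 ± 0.17 (SE; adjusted p = 0.0453), where a rise or fall by a value is on the log2 scale throughout. That call ended without any 1 Col-0 library or without replicate 1 or 3 of the line, where log2 values of the 6 omissions ran from 0.76 to 0.98 and the highest adjusted p was 0.227. The histone-fold subunits DPB3-1 and DPB4 gave log2 differences of -0.074 (adjusted p = 0.906) and 0.093 (adjusted p = 0.883).

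Of the 19924 loci tested, 141 (0.708%) had an adjusted p under 0.05, counted here as a call, and of these 35 (0.176%) rose and 106 (0.532%) fell. Those that rose were 32 protein-coding genes and 3 pseudogenes, and those that fell were 100 protein-coding genes, 3 pseudogenes, 2 small nucleolar RNAs and 1 antisense RNA. At an unadjusted p under 0.05 there were 2974 loci, 1224 higher and 1750 lower, and DESeq2 called 645 at an adjusted p under 0.05. The log2 fold change was over 1 for 23 of the 35 and under -1 for 64 of the 106. The libraries of the line all lay above those of Col-0 at 11% of the loci tested and all below at 12%. The groups did not overlap at any of the 35 loci that rose or the 106 that fell. For a called gene named below, the absence of overlap therefore adds no support beyond its call. The median log2 fold change of all loci tested was 0.002. The count of calls depended on single libraries: it was 63, 38 and 32 without Col-0 replicate 1, 2 or 3, and 21, 286 and 26 without replicate 1, 2 or 3 of the line. Without the 4 libraries of highest LHY in the series it was 925, of which 140 were among the 141. Calls held under every one of the 6 omissions for 11 loci that rose, among them DPB2, BRCA1, SMR7, PARP2, GMI1 and TK1a, and for 8 that fell, among them CCH, AGP2, U3B, MIF1 and CYP78A8. Statements on the other calls rest on all 6 libraries. All calls also rest on the spread shared over the 12 libraries. A fit of only the 2 groups compared gave 221 calls, of which 114 were among the 141.

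Genes of the DNA damage response mostly had higher values in the line. Of the 40 tested members of this list, 5 (12.5%) rose, against 0.176% of all loci tested, and none fell. In 38 the log2 fold change was above 0, and the median was 0.39. Without the 4 libraries of highest LHY 9 rose, while rises over all loci went from 35 to 291. Without replicate 2 of the line alone 5 rose, while rises over all loci went to 75. BRCA1 (AT4G21070), a ubiquitin ligase subunit of homologous recombination, measured 19.6, 17.3 and 18.7 CPM in the line and 6.56, 6.65 and 6.69 CPM in Col-0. The groups were well apart and each was tight, and the log2 fold change was 1.48 ± 0.15 (SE; adjusted p = 0.000739). SMR7 (AT3G27630), a SIAMESE-RELATED inhibitor of cyclin-dependent kinases induced by DNA damage, measured 3.98, 6.37 and 5.94 CPM against 1.52, 1.17 and 0.584 CPM. It was low in every wild-type library, with a log2 fold change of 2.28 ± 0.31 (SE; adjusted p = 0.00524). PARP2, a poly(ADP-ribose) polymerase that marks strand breaks, measured 10.8, 10.4 and 11.4 CPM against 5.15, 4.99 and 3.51 CPM. All values of the line were above those of Col-0, and PARP2 rose by 1.26 ± 0.17 (SE; adjusted p = 0.00638). GMI1, a protein of somatic homologous recombination induced by irradiation, measured 11.9, 12.6 and 10.6 CPM against 4.28, 4.3 and 6 CPM and rose by 1.26 ± 0.18 (SE; adjusted p = 0.00665). XRI1, a gene named for its induction by X-rays, measured 11.8, 13.4 and 11.5 against 4.78, 7.24 and 5.05 CPM and rose by 1.13 ± 0.19 (SE; adjusted p = 0.0191). For both genes the line's libraries lay above all wild-type ones, but the XRI1 call ended without Col-0 replicate 1 or 3 or without replicate 1 or 3 of the line (highest adjusted p = 0.103).

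Other members of the list did not pass the test. SMR5, a further damage-induced SIAMESE-RELATED gene, had the highest estimate, 2.96 ± 0.82 (SE; adjusted p = 0.12), at low levels of 0.895, 1.87 and 0.618 CPM in the line and 0.109, 0 and 0.266 CPM in Col-0. NAC044, a transcription factor downstream of SOG1, measured 4.48, 4.31 and 4.7 against 2.43, 2.54 and 2.6 CPM with a log2 difference of 0.83 ± 0.21 (SE; adjusted p = 0.0886). The kinases ATM and ATR and the factor SOG1 gave log2 differences of 0.21, 0.11 and 0.13, with adjusted p from 0.626 to 0.876. Summed over the 41 matched members of the list, the line held 366, 339 and 378 CPM and Col-0 281, 255 and 263 CPM, with no overlap. RAD52-2, a recombination gene outside the list and named after its values were seen, rose from 14.3, 17.7 and 17.8 to 30.2, 29.4 and 24.4 CPM, a log2 fold change of 0.76 ± 0.14 (SE; adjusted p = 0.034), and of the 6 omissions its call held in that of replicate 2 of the line.

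**Figure D1:**
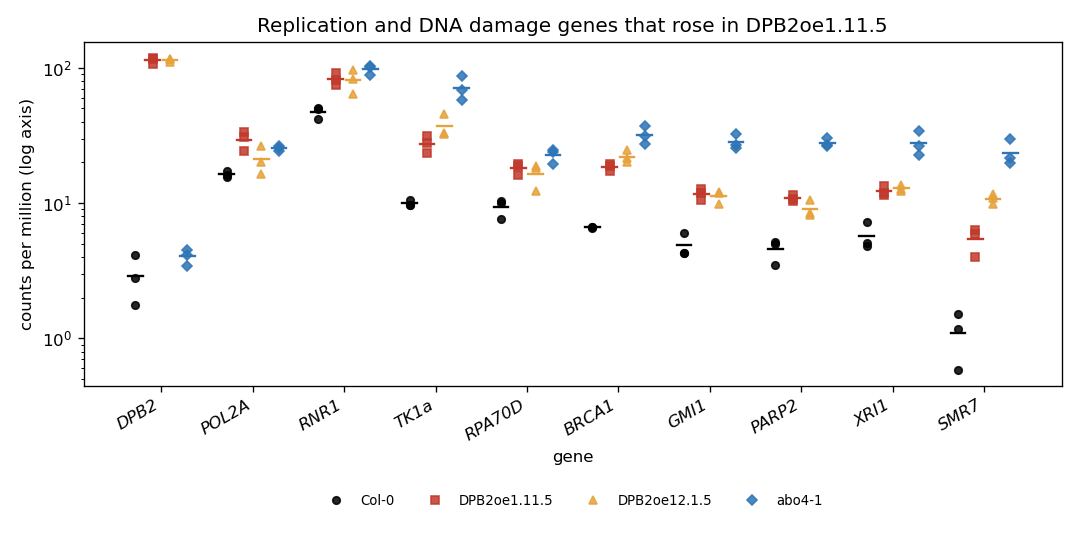
Counts per 1000000 reads (CPM) on a log axis for DPB2, POL2A and 8 replication, nucleotide supply or DNA damage genes that rose in DPB2oe1.11.5. Each point is 1 library, and the horizontal lines are means of 3 libraries. In every gene shown the 3 DPB2oe1.11.5 points lie above the 3 Col-0 points, as at all loci called as rising. DPB2oe12.1.5 and abo4-1 are shown alongside.

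Promoters are shown for the genes of the damage, replication, nucleotide supply and CDK inhibitor lists that rose and that hold a SOG1 or E2F motif within 250 bases before to 50 after the annotated start. DPB2 is left out, since its counts cannot be assigned to the native promoter. The SOG1 motif is CTT, any 7 bases, then AAG, and the E2F motif is TTTCCCGC, TTTGGCGC or TTTGCCGC, both searched on both strands. Capitals mark the matches in the sequences, read from the RefSeq TAIR10.1 genome and written 5′ to 3′ on the strand of the gene.
SMR7 (chr3:10231518-10231817, minus strand): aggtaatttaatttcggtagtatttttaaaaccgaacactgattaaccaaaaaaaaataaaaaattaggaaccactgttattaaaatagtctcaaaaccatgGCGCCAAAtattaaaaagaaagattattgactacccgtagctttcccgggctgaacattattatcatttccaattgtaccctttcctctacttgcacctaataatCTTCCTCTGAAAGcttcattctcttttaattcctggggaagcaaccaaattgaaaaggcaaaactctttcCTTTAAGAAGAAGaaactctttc
RNR1 (chr2:9293011-9293310, plus strand): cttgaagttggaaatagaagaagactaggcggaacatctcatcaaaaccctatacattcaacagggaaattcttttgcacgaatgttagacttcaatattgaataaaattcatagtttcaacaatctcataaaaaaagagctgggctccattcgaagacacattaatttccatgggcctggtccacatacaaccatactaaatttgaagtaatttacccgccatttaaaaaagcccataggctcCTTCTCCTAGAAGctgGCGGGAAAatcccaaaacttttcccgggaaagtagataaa
PARP2 (chr4:1049516-1049815, plus strand): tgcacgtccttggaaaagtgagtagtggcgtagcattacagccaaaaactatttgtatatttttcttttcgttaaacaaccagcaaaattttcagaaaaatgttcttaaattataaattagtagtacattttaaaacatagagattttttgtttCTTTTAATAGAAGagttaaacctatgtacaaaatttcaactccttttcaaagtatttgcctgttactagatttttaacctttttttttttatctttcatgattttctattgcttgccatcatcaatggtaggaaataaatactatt
BRCA1 (chr4:11247741-11248040, plus strand): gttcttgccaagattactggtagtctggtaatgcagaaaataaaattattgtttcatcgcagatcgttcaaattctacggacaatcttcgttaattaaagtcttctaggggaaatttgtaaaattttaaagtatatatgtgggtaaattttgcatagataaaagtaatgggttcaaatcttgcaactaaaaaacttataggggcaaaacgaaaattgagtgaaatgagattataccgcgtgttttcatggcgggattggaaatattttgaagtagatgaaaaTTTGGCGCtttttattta
RPA70D (chr5:24552806-24553105, minus strand): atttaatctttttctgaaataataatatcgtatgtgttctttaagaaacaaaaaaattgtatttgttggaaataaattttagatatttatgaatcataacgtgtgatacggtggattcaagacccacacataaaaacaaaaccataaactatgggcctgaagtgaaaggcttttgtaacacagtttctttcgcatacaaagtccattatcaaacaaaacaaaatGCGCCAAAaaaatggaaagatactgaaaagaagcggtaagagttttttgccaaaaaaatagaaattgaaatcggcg

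SMR7 and RNR1 held both kinds of motif, PARP2 the SOG1 motif alone, and BRCA1 and RPA70D the E2F motif alone. GMI1, XRI1, TK1a and POL2A, which also rose, held neither in this window. Among the 32 protein-coding genes that rose, 6 (18.8%) held the SOG1 motif and 6 (18.8%) the E2F motif, DPB2 among the latter. Over all 26711 nuclear protein-coding promoters of this length the shares were 11.7% and 1.55%, and among the 100 protein-coding genes that fell they were 4% and 1%. In the DNA damage list 11 of 41 promoters (26.8%) held the SOG1 motif, and in the replication list 19 of 46 (41.3%) held the E2F motif. A match describes the letters and does not show binding.

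Replication and nucleotide supply genes mostly had higher values in the line, with few calls. In the replication list 1 (2.17%) of 46 tested members rose, against 0.176% of all loci tested, and none fell. Log2 values were above 0 in 42, and the median was 0.32. The member that rose, RPA70D (AT5G61000), a large subunit of the single-strand binding protein RPA, measured 19.4, 18.9 and 16.2 CPM in the line and 7.65, 10.3 and 10 CPM in Col-0. The groups did not overlap, and the log2 fold change was 0.97 ± 0.19 (SE; adjusted p = 0.0351). CDC45, part of the replicative helicase, measured 5.72, 5.08 and 5.19 against 2.97, 3.52 and 3.51 CPM, a log2 difference of 0.69 ± 0.17 (SE; adjusted p = 0.0897). In the deoxynucleotide list all 9 members tested were above 0, and 2 (22.2%) rose. TK1a (AT3G07800), a thymidine kinase that salvages deoxythymidine, measured 27.6, 31.4 and 24 CPM against 9.68, 10.5 and 9.62 CPM, a log2 fold change of 1.48 ± 0.19 (SE; adjusted p = 0.00459), with the lowest library of the line far above the highest of Col-0. RNR1, the large subunit of ribonucleotide reductase, measured 90.8, 74.8 and 80.5 against 41.7, 50.3 and 49.7 CPM and rose by 0.80 ± 0.16 (SE; adjusted p = 0.0392). The RNR1 and RPA70D calls ended without any 1 Col-0 library or without replicate 1 or 3 of the line, with highest adjusted p of 0.207 and 0.175. TSO2, a small reductase subunit, gave 0.93 ± 0.23 (SE; adjusted p = 0.0952).

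Cell cycle genes showed small differences, mostly in the same direction, without a call. None of the 21 G1/S members or 39 G2/M members tested passed in edgeR, while 20 and 35 of them had values above 0, with medians of 0.36 and 0.47. At an unadjusted p under 0.05 there were 7 and 23 of them, and DESeq2 called 0 and 5. For the G2/M list the summed level was 633, 459.9 and 655 CPM in the line and 417, 447 and 445 CPM in Col-0. In the fit without replicate 2 of the line 8 of the 39 rose, while rises over all loci went from 35 to 75. Without the 4 libraries of highest LHY 13 rose, while rises over all loci went to 291. KN, the cytokinesis syntaxin KNOLLE, measured 50.4, 34 and 52.4 CPM against 22.9, 26.1 and 30.2 CPM, a log2 difference of 0.79 ± 0.19 (SE; adjusted p = 0.0849). CYCB1;1, a mitotic cyclin also induced by DNA damage, measured 10, 8.15 and 9.65 against 5.65, 6.26 and 5.42 CPM, a log2 difference of 0.69 ± 0.17 (SE; adjusted p = 0.0877). For both genes the groups did not overlap. Of the 22 CDK inhibitor and endocycle genes, SMR7 was the 1 that rose, and SMR1, SMR2 and SMR3 had values of -1.12, -0.86 and -1.01 (adjusted p from 0.19 to 0.296). The 21 core and linker histone genes found by symbol and tested had a median of 0.002 and no call in edgeR, with 5 at an unadjusted p under 0.05 and 3 called by DESeq2. RAT5, a histone H2A gene that the symbols of this list do not take in and that is named after its values were seen, measured 18.4, 23.1 and 19.4 against 56.7, 39.9 and 35.4 CPM and fell by 1.12 ± 0.21 (SE; adjusted p = 0.0343), a call that held in 1 of the 6 omissions, that of replicate 2 of the line. H2AXA, a histone variant phosphorylated at strand breaks, measured 57.6, 55.9 and 53.7 against 97.6, 82.2 and 92.5 CPM, a log2 difference of -0.70 ± 0.18 (SE; adjusted p = 0.0925).

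**Figure D2:**
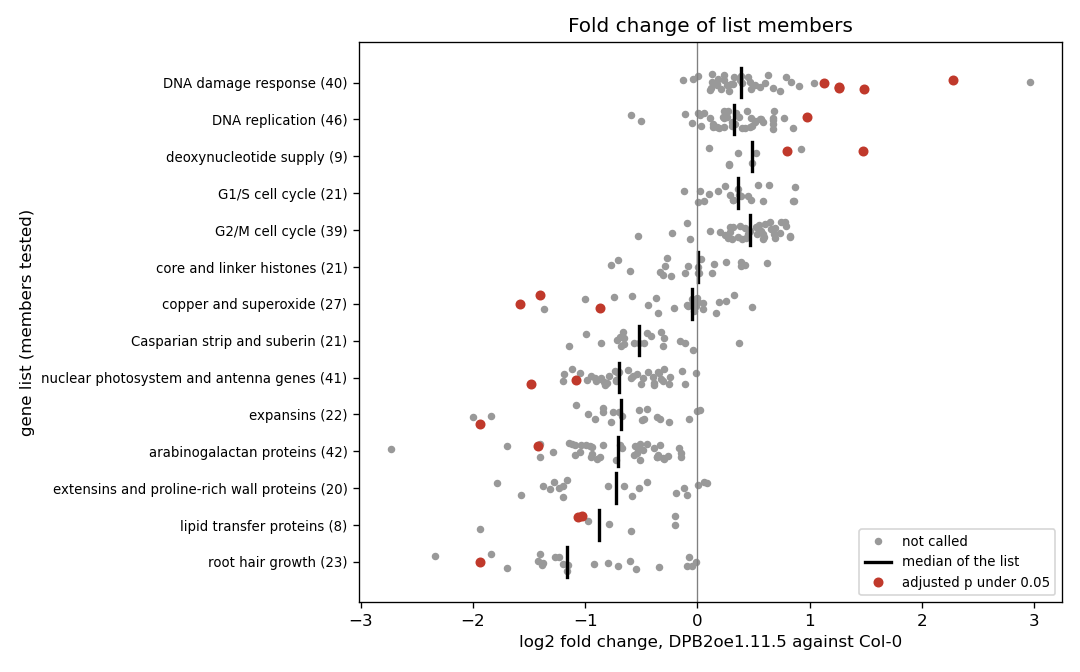
Log2 fold change of DPB2oe1.11.5 against Col-0 for the tested members of 14 gene lists, 1 point per gene, red where the adjusted p was under 0.05. The 14 were picked by no set rule from a larger number of lists. Others with medians near 0, such as flavonoid (0.012) and cutin and wax (0.008), are left out. Without replicate 2 of the line these 2 medians were -0.561 and -0.110. Black bars are list medians, from 0.48 for deoxynucleotide supply to -1.16 for root hair growth. Vertical scatter within a list has no meaning.

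MAF4 and MAF5, floral repressors of the FLC clade, rose at low levels. MAF5 (AT5G65080, chromosome 5, 25997504 to 26002619) measured 4.82, 2.2 and 5.63 CPM in the line and 0.652, 0.685 and 0.478 CPM in Col-0, and rose by 2.79 ± 0.42 (SE; adjusted p = 0.00951) on the log2 scale. Its neighbour MAF4 (AT5G65070, chromosome 5, 25992193 to 25996202) measured 4.87, 7.14 and 5.57 against 1.85, 1.57 and 2.39 CPM, a log2 fold change of 1.58 ± 0.24 (SE; adjusted p = 0.0123). In both genes the groups were separate, with the lowest MAF5 value of the line in replicate 2. The MAF5 call ended without Col-0 replicate 3 or without replicate 1 or 3 of the line, and the MAF4 call without Col-0 replicate 1 or 2 or replicate 3 of the line (highest adjusted p = 0.0677 and 0.0587). These were 2 (10%) of 20 flowering genes tested, where 0.176% of all loci tested rose, and none of the 20 fell. FLC itself, the main repressor of the vernalization pathway, gave 0.72 ± 0.26 (SE; adjusted p = 0.202).

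The 5 largest log2 fold changes among the loci that rose were those of DPB2, 3 pseudogenes and an F-box gene. AT5G33251, a pseudogene (chromosome 5, 12499072 to 12500433), measured 26.6, 39.7 and 32.9 CPM in the line and 0.109, 0 and 0 CPM in Col-0. With 1895 counts against 3, the ratio of rates was 744 (95% exact interval 254 to 3612, counting error only), and the adjusted p was 0.000723. The neighbouring pseudogenes AT2G05030 (chromosome 2, 1781886 to 1782503) and AT2G05040 (1783119 to 1786463) rose together. AT2G05030 had 73 counts in the line and 0 in Col-0, which makes it at least 28.7-fold higher against a floor of 3 counts over the group (adjusted p = 0.00951; the call ended without replicate 1 of the line at 0.0561). AT2G05040 measured 5.82, 7.04 and 4.82 CPM against 0.109, 0.196 and 0.425 CPM, a log2 fold change of 4.6 ± 0.47 (SE; adjusted p = 0.000806). AT5G33251 measured 0.884, 0.068 and 0 CPM in DPB2oe12.1.5 and 0.0556, 0.139 and 0 CPM in abo4-1, and AT2G05040 measured 0.0804, 0.34 and 0.078 and 0.222, 0.209 and 0.291 CPM there, so both were high in DPB2oe1.11.5 alone among the 12 libraries. AT5G07610, an F-box family gene, had 174 counts against 2, a ratio of 102 (95% exact interval 28 to 853), with an adjusted p of 0.0026. AT5G07610 was also detected in DPB2oe12.1.5 at 1.85, 3.67 and 1.87 CPM and in abo4-1 at 2.89, 3.14 and 1.84 CPM.

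Several further genes rose. AT5G60250, a RING finger gene, measured 4.63, 5.7 and 3.59 CPM in the line and 0.797, 1.76 and 0.744 CPM in Col-0 and rose by 2.2 ± 0.33 (SE; adjusted p = 0.00951). SIP4, a kinase that interacts with SOS3-type calcium sensors, measured 18.5, 21.6 and 15.3 against 9.42, 6.85 and 9.08 CPM and rose by 1.12 ± 0.17 (SE; adjusted p = 0.00951). FLN2, a fructokinase-like protein of the plastid transcription machinery, measured 52.3, 38.9 and 44.5 against 20, 20.8 and 24.1 CPM and rose by 1.06 ± 0.20 (SE; adjusted p = 0.0334). In these genes every library of the line was above every wild-type library. The AT5G60250 call ended without Col-0 replicate 1 or 3 or replicate 1 of the line, the SIP4 call without replicate 1 of the line, and the FLN2 call in every omission except that of replicate 2 of the line (highest adjusted p = 0.0708, 0.0507 and 0.18). AT5G23910, a microtubule motor family gene, measured 19.7, 15.3 and 21.4 against 7.94, 9.78 and 8.98 CPM, a log2 fold change of 1.08 ± 0.18 (SE; adjusted p = 0.0157), and of the 6 omissions its call held in that of replicate 2 of the line. The following were named after their values were seen. MIOX4, a myo-inositol oxygenase, measured 4.87, 5.51 and 4.82 CPM against 1.01, 0.0978 and 0.213 CPM (log2 3.23 ± 0.44 SE, adjusted p = 0.00638). AT1G20750, annotated as a RAD3-like helicase, measured 2.29, 1.49 and 1.67 against 0.181, 0.0978 and 0.266 CPM (log2 3.19 ± 0.50 SE, adjusted p = 0.0124). GEX1, annotated as gamete-expressed, measured 0.895, 1.39 and 1.18 against 0.181, 0.196 and 0.159 CPM (log2 2.65 ± 0.42 SE, adjusted p = 0.0124). In all of these the groups did not overlap, and the calls of MIOX4, AT1G20750 and GEX1 held in 6, 1 and 2 of the 6 omissions, with AT1G20750 lost in those of Col-0 replicates 1, 2 and 3 and replicates 1 and 3 of the line and GEX1 in those of Col-0 replicates 1, 2 and 3 and replicate 3 of the line.

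Of 27 copper and superoxide genes tested, 3 (11.1%) fell, against 0.532% of all loci tested. None rose, and the median was -0.047. CCH (AT3G56240, chromosome 3, 20863139 to 20864727), a copper chaperone of the cytosol, measured 156, 182 and 157 CPM in the line and 481, 492 and 501 CPM in Col-0. Both groups were tight and far apart, and the log2 fold change was -1.58 ± 0.14 (SE; adjusted p = 0.000364). COPT6, a copper importer of the plasma membrane, measured 11.7, 15.2 and 10.3 against 34.7, 31.3 and 32.9 CPM and fell by 1.41 ± 0.19 (SE; adjusted p = 0.00524). COPT5, the copper exporter of the vacuole, measured 44.1, 44.3 and 38.7 against 82.7, 66.7 and 82.8 CPM and fell by 0.87 ± 0.15 (SE; adjusted p = 0.0229). None of the 3 genes overlapped between groups, though the COPT6 call ended without replicate 1 of the line and the COPT5 call without Col-0 replicate 1 or 3 or replicate 1 or 3 of the line (highest adjusted p = 0.0524 and 0.143). The superoxide dismutases CSD1, CSD2 and FSD1 gave -0.013, 0.26 and 0.20, with adjusted p from 0.707 to 0.987. SPL7, the copper-sensing transcription factor, gave -0.030 ± 0.12 (SE; adjusted p = 0.939).

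Nuclear photosystem and antenna genes all had lower values in the line. All 41 tested members had values below 0, with a median of -0.70, but 2 (4.88%) passed the test, while 0.532% of all loci tested fell. In 33 the libraries of the line lay below all of Col-0, which held for 12% of all loci tested. Without the 4 libraries of highest LHY 20 of the 41 fell, while falls over all loci went from 106 to 634. The 4 left out were replicate 2 of the line, replicates 1 and 2 of DPB2oe12.1.5 and replicate 2 of abo4-1. Without replicate 2 of the line alone 3 of the 41 fell, while falls over all loci went to 211. The summed level of the list was 157913, 153343 and 170357 CPM in the line and 264371, 275534 and 280378 CPM in Col-0, without overlap. PSAK, a photosystem I subunit, measured 1483, 1415 and 1446 CPM against 4197, 4359 and 3586 CPM and fell by 1.48 ± 0.27 (SE; adjusted p = 0.0248). LHCB4.2, a minor antenna protein of photosystem II, measured 3014, 2910 and 2970 against 6709, 6462 and 5608 CPM and fell by 1.08 ± 0.21 (SE; adjusted p = 0.0369). Neither gene overlapped between groups. The PSAK call held without replicate 2 of the line only, and the LHCB4.2 call under none of the 6 omissions (highest adjusted p = 0.149 and 0.187, with log2 values always below -1). GLK2, a transcription factor that activates photosynthesis genes, measured 120, 177 and 128 against 235, 195 and 221 CPM, a log2 difference of -0.62 ± 0.15 (SE; adjusted p = 0.0861). The 80 chloroplast-encoded loci tested had a median of 0.36 and no call in edgeR, with 4 at an unadjusted p under 0.05 and 2 called by DESeq2.

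Genes of root hairs had lower values in the line. All 23 tested root hair genes had values below 0, and the median was -1.16, the lowest of the 14 lists plotted. In 17 the libraries of the line lay below all of Col-0, which held for 12% of all loci tested. In 1 member (4.35%) the test was passed, against 9 without the 4 libraries of highest LHY, where falls over all loci went from 106 to 634. Without replicate 2 of the line alone 1 other member passed, while falls over all loci went to 211. EXPA7 (AT1G12560), an expansin of root hairs, measured 0.945, 0.719 and 0.804 CPM in the line and 2.5, 4.11 and 3.08 CPM in Col-0, without overlap. EXPA7 was the 1 member that fell with all 12 libraries in the fit (log2 -1.94 ± 0.39 SE, adjusted p = 0.0409). Its call ended under each of the 6 omissions, where log2 values ran from -2.09 to -1.73 and the highest adjusted p was 0.178. EXPA18, a further root hair expansin, measured 0.796, 1.63 and 0.866 against 2.75, 4.3 and 4.94 CPM (log2 -1.83 ± 0.41 SE, adjusted p = 0.0694). The regulator RSL2 gave -2.34 ± 0.62 (SE; adjusted p = 0.107) at under 2 CPM in every library, and RHD6, an upstream regulator of hair fate, gave -0.051 ± 0.36 (SE; adjusted p = 0.967). Summed over its 26 matched members, the root hair list measured 109, 112 and 116 CPM in the line and 163, 144 and 155 CPM in Col-0. Endodermal genes of the Casparian strip and suberin had 20 of 21 values below 0 and a median of -0.52, with no call in edgeR, 9 at an unadjusted p under 0.05 and 3 called by DESeq2. CASP1, a scaffold protein of the Casparian strip, measured 7.81, 7.38 and 8.23 against 13.6, 13.9 and 15.1 CPM (log2 -0.86 ± 0.23 SE, adjusted p = 0.106).

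Wall protein families mostly had values below 0. All 42 arabinogalactan and fasciclin-like proteins tested were below 0, with a median of -0.71, and 1 fell: AGP2, at 10.2, 15.9 and 14.6 CPM against 39.9, 28.1 and 40.8 CPM (log2 -1.42 ± 0.19 SE, adjusted p = 0.0048). Of 22 expansins 21 were below 0, with EXPA7 the 1 called, and of 20 extensins and proline-rich proteins 17 were below 0, with none called by edgeR, 11 at an unadjusted p under 0.05 and 6 called by DESeq2. XTH14, a xyloglucan endotransglucosylase, measured 3.33, 3.26 and 2.47 against 7.43, 10.6 and 10.4 CPM and fell by 1.63 ± 0.26 (SE; adjusted p = 0.0138), the 1 call among 26 such genes. The 8 lipid transfer proteins found by symbol and tested were all below 0, and LTP2 (log2 -1.06 ± 0.21 SE, adjusted p = 0.0394) and LTP6 (log2 -1.03 ± 0.20 SE, adjusted p = 0.0316) fell. LTP2 measured 73.1, 108 and 84.1 against 174, 178 and 200 CPM, and LTP6 measured 54.5, 84.9 and 71.3 against 139, 146 and 146 CPM. By product name, a count made after the values were seen, 67 lipid-transfer loci were tested. Of these 8 (11.9%) fell, against 0.532% of all loci tested, none rose, 5 had values above 0, and the median was -0.62. With an offset for transcript length 2 fell. AT1G48750, a gene of the lipid-transfer superfamily, measured 30.8, 40.1 and 38.3 against 117, 96.5 and 109 CPM and fell by 1.56 ± 0.23 (SE; adjusted p = 0.00951). In all of these genes the line's libraries lay below every wild-type library. The AGP2 call held under all 6 omissions, while XTH14 lost its call without Col-0 replicate 2 or 3 or replicate 1 or 3 of the line, AT1G48750 without Col-0 replicate 3 or replicate 1 or 3 of the line, and LTP2 and LTP6 in all but the omission of replicate 2 of the line.

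Some peroxidase and water channel loci fell. A count over 52 tested loci annotated as peroxidase family, made after the values were seen, held 7 (13.5%) that fell. Of all loci tested 0.532% fell. None of the 52 rose, and their median was -0.60. A list by gene symbol, which also took in the peroxiredoxins PRXIIF and PRXQ, held 8 tested loci with a median of -0.58, of which edgeR called none, DESeq2 called 2 lower, and 3 were lower at an unadjusted p under 0.05. AT1G30870 measured 3.33, 4.26 and 3.46 CPM in the line and 8.23, 9.98 and 10.5 CPM in Col-0 and fell by 1.37 ± 0.21 (SE; adjusted p = 0.0098). AT5G17820 measured 15.4, 19.4 and 14.1 against 43.8, 39.9 and 47.9 CPM (log2 -1.43 ± 0.25 SE, adjusted p = 0.0244), AT2G38390 measured 12, 8.96 and 10.5 against 22, 31.4 and 31.7 CPM (log2 -1.43 ± 0.26 SE, adjusted p = 0.0247), and AT2G18150 measured 4.58, 4.46 and 4.14 against 8.7, 12.5 and 14.9 CPM (log2 -1.45 ± 0.23 SE, adjusted p = 0.0124). These 4 loci were low in all 3 libraries of the line. Of 43 aquaporins tested 2 (4.65%) fell, against 0.532% of all loci tested, none rose, and 13 had values above 0. PIP2E, a plasma membrane aquaporin, measured 277, 332 and 251 against 758, 618 and 532 CPM (log2 -1.15 ± 0.20 SE, adjusted p = 0.0212), and TIP4;1, a vacuolar one, measured 7.01, 7.09 and 5.88 against 22.5, 12.2 and 15.4 CPM (log2 -1.33 ± 0.25 SE, adjusted p = 0.0333). Neither overlapped between groups. Each of these 6 calls ended without replicate 1 or 3 of the line and without at least 1 Col-0 library, with highest adjusted p of 0.0877 for AT1G30870 and 0.178 for TIP4;1.

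The other hormone, stress and nutrient lists held at most 1 call each, and the loci called fell. PP2CA, a phosphatase that restrains abscisic acid signalling, measured 51, 56.2 and 43.2 CPM against 96.3, 118 and 123 CPM and fell by 1.17 ± 0.19 (SE; adjusted p = 0.0157). ERF4, an ethylene response repressor, measured 43.8, 47.8 and 39.6 against 119, 107 and 114 CPM and fell by 1.38 ± 0.23 (SE; adjusted p = 0.0169). HCHIB, a basic chitinase, measured 13.3, 17.8 and 11.9 against 37.3, 47.1 and 49 CPM and fell by 1.63 ± 0.25 (SE; adjusted p = 0.0124). The groups of these genes did not overlap. AMT1;1, an ammonium importer, measured 29.6, 42.3 and 31.8 against 86.5, 62.8 and 76.7 CPM (log2 -1.12 ± 0.22 SE, adjusted p = 0.0387). CKX4, a cytokinin oxidase, measured 3.93, 2.83 and 3.09 against 7.5, 7.24 and 7.23 CPM (log2 -1.16 ± 0.24 SE, adjusted p = 0.0462). Each was the 1 call in its list: 29 abscisic acid and cold genes, 28 ethylene genes, 20 salicylic acid and defence genes, 24 nitrogen genes and 27 cytokinin genes, with medians of -0.39, -0.22, -0.29, -0.28 and -0.10. CKX4 lost its call under all 6 omissions, AMT1;1 and ERF4 in all but that of replicate 2 of the line, and PP2CA and HCHIB without Col-0 replicate 2 or 3 or replicate 1 or 3 of the line. CYP78A8, a cytochrome P450, measured 1.04, 1.15 and 0.866 against 4.89, 4.89 and 4.04 CPM and fell by 2.16 ± 0.28 (SE; adjusted p = 0.0048), a call that held under all 6. Jasmonate (24 tested), heat shock (13), flavonoid (17), iron (26) and gibberellin and brassinosteroid (28) lists held no call in edgeR or DESeq2, with 3, 4, 0, 1 and 3 members at an unadjusted p under 0.05. Their medians were -0.115, 0.543, 0.012, 0.182 and -0.105 in that order. Without replicate 2 of the line the medians were -0.049, -0.019, -0.561, -0.248 and -0.191. The auxin (40 tested) and phosphate and sulphate (27) lists held no call in edgeR, 5 members each at an unadjusted p under 0.05 and 1 each called lower by DESeq2.

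Further loci that fell belong to none of these lists. AT2G22425, annotated as the small subunit of the microsomal signal peptidase, measured 13.4, 15.7 and 14.9 CPM in the line and 33.8, 40.4 and 34.7 CPM in Col-0 and fell by 1.31 ± 0.16 (SE; adjusted p = 0.00341). AT5G03460, an uncharacterized protein, measured 18.4, 14.9 and 16.5 against 37.9, 41.2 and 43.5 CPM and fell by 1.30 ± 0.15 (SE; adjusted p = 0.0026). AT1G67865, also uncharacterized, measured 11.7, 14.5 and 16.6 against 65.4, 49 and 41.9 CPM and fell by 1.87 ± 0.34 (SE; adjusted p = 0.0366). The libraries of these loci did not overlap, and the calls of AT2G22425 and AT5G03460 held under all 6 omissions. AT3G61980, annotated as a Kazal-type serine protease inhibitor, measured 3.13, 5.8 and 4.58 against 18.1, 15.4 and 12 CPM (log2 -1.75 ± 0.29 SE, adjusted p = 0.0181), and AT5G44550, of the UPF0497 family, measured 5.92, 7.38 and 5.69 against 27.2, 16.3 and 17.7 CPM (log2 -1.69 ± 0.31 SE, adjusted p = 0.0307). MIF1, a mini zinc finger gene named after its values were seen, measured 2.59, 3.26 and 2.16 against 11.2, 8.02 and 8.87 CPM and fell by 1.81 ± 0.23 (SE; adjusted p = 0.0048), without overlap. The AT1G67865 call was lost in the omissions of Col-0 replicates 1, 2 and 3 and replicates 1, 2 and 3 of the line, the AT3G61980 call in those of Col-0 replicates 1 and 2 and replicates 1 and 3 of the line, and the AT5G44550 call in those of Col-0 replicates 1, 2 and 3 and replicates 1 and 3 of the line.

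**Figure D3:**
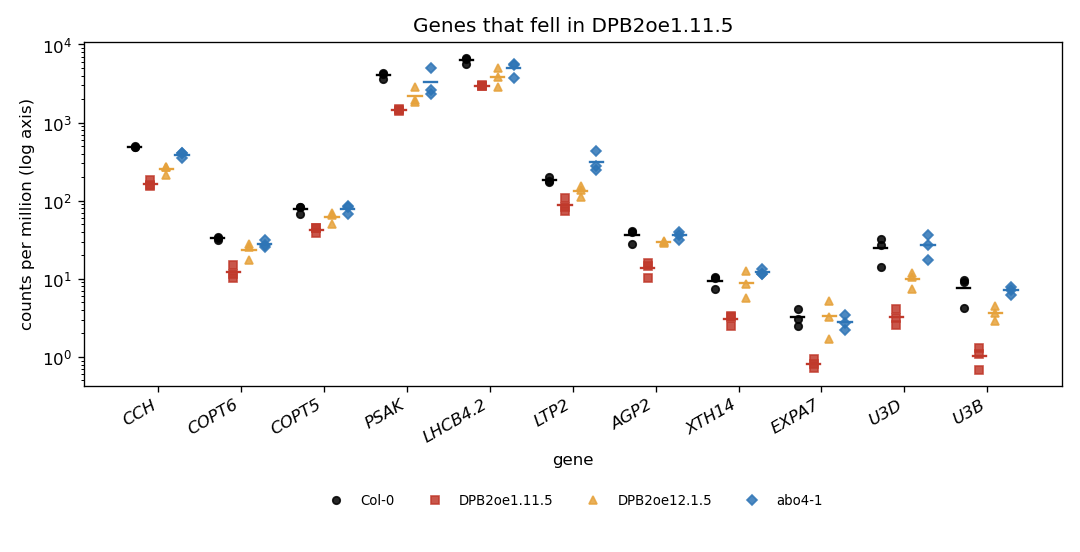
Counts per 1000000 reads (CPM) on a log axis for 11 genes that fell in DPB2oe1.11.5, 1 point per library with the mean of 3 libraries as a line. In each gene the 3 DPB2oe1.11.5 points lie below the 3 Col-0 points, as at all loci called as falling. DPB2oe12.1.5 and abo4-1 are shown alongside.

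Copies of the U3 small nucleolar RNA, which guides early processing of ribosomal RNA, fell. U3D (AT5G54075) measured 2.59, 4.07 and 3.15 CPM in the line and 14.2, 27.1 and 32.8 CPM in Col-0, and U3B (AT5G53902) measured 1.29, 1.1 and 0.68 against 4.28, 9 and 9.67 CPM. Neither overlapped. U3D fell by 2.91 ± 0.36 (SE; adjusted p = 0.00501) and U3B fell by 2.86 ± 0.34 (SE; adjusted p = 0.0032) on the log2 scale. The U3D call ended without replicate 1 of the line (adjusted p = 0.0507). The libraries were made from selected mRNA and sized, so these levels describe the RNA that entered them. The 2 loci share a near-identical stretch of chromosome 5, shown because reads with several equally good hits were removed before counting. Capitals mark the bases that differ or are missing between the copies, from the RefSeq TAIR10.1 genome.
U3B (chr5:21888279-21888524, plus strand): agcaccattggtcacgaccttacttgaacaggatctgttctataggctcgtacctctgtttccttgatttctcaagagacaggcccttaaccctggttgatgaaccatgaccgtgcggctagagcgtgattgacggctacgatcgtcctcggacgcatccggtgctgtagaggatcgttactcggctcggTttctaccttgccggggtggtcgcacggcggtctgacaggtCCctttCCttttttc
U3D (chr5:21945377-21945620, minus strand): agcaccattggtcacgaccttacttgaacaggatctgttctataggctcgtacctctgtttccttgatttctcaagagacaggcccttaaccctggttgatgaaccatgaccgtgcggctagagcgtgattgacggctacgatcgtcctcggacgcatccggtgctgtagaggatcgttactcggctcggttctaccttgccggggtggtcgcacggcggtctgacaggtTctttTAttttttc

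Over this stretch 241 bases were identical, 3 mismatched and 2 lay in gaps (98% identity), so counts for either copy are uncertain. Of 27 small nucleolar RNAs tested these 2 (7.41%) fell, against 0.532% of all loci tested. None rose, 24 were below 0 and the median was -0.91. Over all 71 small nucleolar RNAs matched, tested or not, the summed level was 43.2, 31.9 and 36.5 CPM in the line and 61.5, 94.1 and 119 CPM in Col-0.

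Loci that fell were short. Their median transcript length was 750 bases, against 1856 for loci that rose and 1516 for all loci tested, and 66% of those that fell were under 1000 bases against 22.8% of all. In 5 bins of near-equal size by length, from shortest to longest, the median log2 fold change of all loci was -0.147, -0.042, -0.001, 0.037 and 0.085. In each library the median deviation of the shortest bin minus that of the longest was -0.201, -0.055 and -0.142 (log2) in the line and -0.001, 0.129 and 0.137 in Col-0, so the groups did not overlap in this measure. Some lists that stood lower held short genes. The median length was 768.5 bases for arabinogalactan proteins, 1020 for photosystem genes and 675.5 for lipid transfer proteins. Root hair genes, at 1399, were nearer to the 1516 of all loci tested. Extensins and proline-rich proteins, laccases and Casparian strip genes were longer, at 2048, 1931 and 1671 bases, with median log2 values of -0.72, -0.58 and -0.52. With an offset for transcript length, a setting chosen after seeing the data, 68 loci were called, 32 rose and 36 fell, and 65 of the 68 were among the 141. The medians then were -0.56 for arabinogalactan, -0.52 for photosystem, -0.64 for lipid transfer and -1.08 for root hair genes. For the lists of longer genes they were -0.67, -0.58 and -0.54. EXPA7, PSAK, LHCB4.2, LTP2, LTP6, COPT5, AMT1;1, CKX4, TIP4;1, AT1G67865, AT5G44550, RNR1 and RPA70D were no longer called, while CCH, COPT6, AGP2, U3B, U3D, XTH14, the 5 damage genes, TK1a and POL2A were. What set the length trend was not tested.

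**Figure D4:**
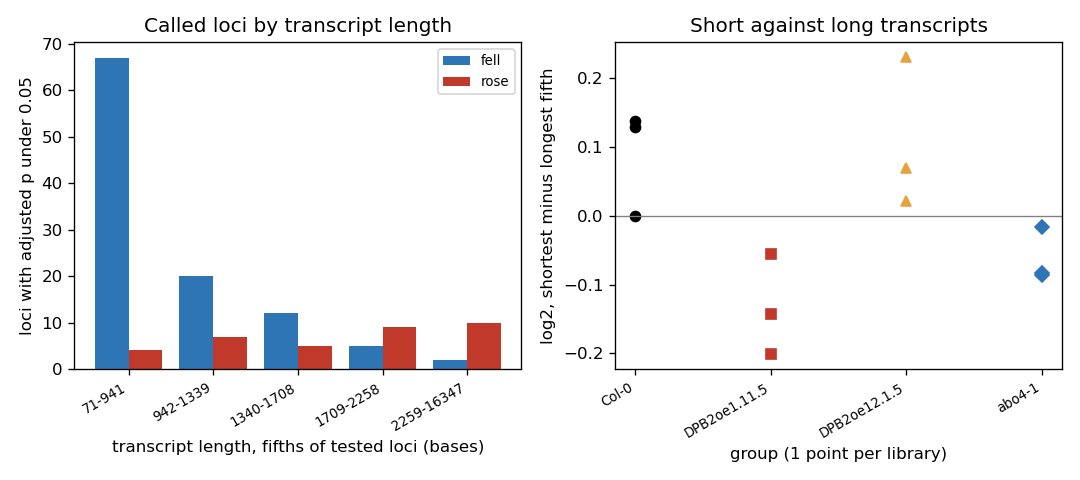
Left, number of called loci that fell or rose in each of 5 bins of transcript length, with 67 of the 106 falls in the shortest bin. Right, median log2 deviation of the shortest bin minus that of the longest bin in each library, where the 3 DPB2oe1.11.5 libraries lie below the 3 Col-0 libraries.

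The line was set directly against the other overexpressor, which shares no library with it. DPB2 itself differed by -0.016 ± 0.19 (SE; adjusted p = 0.972), at 117, 110 and 117 CPM in DPB2oe12.1.5. At 6 loci (0.0301% of those tested) the adjusted p was under 0.05. Higher in DPB2oe1.11.5 were AT5G33251, AT2G05040 and TGG2, a myrosinase of glucosinolate breakdown, which measured 368, 372 and 389 CPM here, 143, 165 and 122 CPM in the other line and 508, 464 and 434 CPM in Col-0 (log2 1.39 ± 0.14 SE, adjusted p = 0.00178, between the lines). Lower in DPB2oe1.11.5 were CYP78A8 (log2 -2.40 ± 0.28 SE, adjusted p = 0.00583), the peroxidase AT1G30870 (log2 -1.60 ± 0.21 SE, adjusted p = 0.0114) and EM6, a late embryogenesis protein, with 0.348, 0.335 and 0.433 against 3.38, 3.74 and 1.87 CPM (log2 -3.0 ± 0.39 SE, adjusted p = 0.0114). EM6 was named after its values were seen. The count was 1119 without replicate 2 of DPB2oe1.11.5, 20 without replicate 2 and 11 without replicate 3 of DPB2oe12.1.5, and 3 without replicate 1 or without replicate 3 of DPB2oe1.11.5. BRCA1 and SMR7 differed between the lines by -0.25 ± 0.14 (SE; adjusted p = 0.365) and -0.99 ± 0.26 (SE; adjusted p = 0.113), and the root hair list had a median of -1.23 between them.

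Against abo4-1, 327 loci (1.64%) passed, and 255 of them (1.28% of those tested) were lower in DPB2oe1.11.5. The damage genes that rose in the line stood higher still in abo4-1: SMR7 measured 19.8, 21.4 and 29.6 CPM there (log2 -2.12 ± 0.27 SE, adjusted p = 0.00154, for the line minus abo4-1), PARP2 26.7, 30.5 and 26.2 CPM (log2 -1.35 ± 0.17 SE, adjusted p = 0.00149) and BRCA1 31.5, 37.4 and 27.2 CPM (log2 -0.79 ± 0.14 SE, adjusted p = 0.0158). TK1a measured 68.3, 86.7 and 57.4 CPM in abo4-1 (log2 -1.36 ± 0.18 SE, adjusted p = 0.00206). The median of the whole damage list between these genotypes was -0.11. GMI1 and XRI1 differed by -1.27 ± 0.17 (SE; adjusted p = 0.00206) and -1.18 ± 0.18 (SE; adjusted p = 0.00655), and AT5G60250 by -2.69 ± 0.28 (SE; adjusted p = 0.000436). MRD1, a gene named for its response in a methionine-accumulating mutant, measured 0.199, 0.335 and 0.371 CPM in the line, 20, 23.8 and 17.7 CPM in abo4-1 and 0.326, 0 and 0.213 CPM in Col-0, and AT5G33370, a GDSL-type lipase gene, measured 11.3, 18.1 and 11.1, 0.222, 0.139 and 0.387 and 11.1, 9 and 9.19 CPM in that order, so both stood apart in abo4-1 rather than in the line. GL2, a homeodomain factor of epidermal cell fate, measured 11.8, 14.4 and 13.5 CPM in the line, 3.67, 3.21 and 5.62 CPM in abo4-1 and 20.7, 16.7 and 18 CPM in Col-0 (log2 1.69 ± 0.20 SE, adjusted p = 0.000997, against abo4-1). MAF4 and MAF5 were higher in the line, by 1.73 ± 0.25 (SE; adjusted p = 0.00438) and 2.81 ± 0.43 (SE; adjusted p = 0.00585). CCH, AGP2 and U3D were lower in the line, with log2 values of -1.24 ± 0.14 (SE; adjusted p = 0.000695), -1.41 ± 0.19 (SE; adjusted p = 0.00206) and -3.04 ± 0.36 (SE; adjusted p = 0.00171). Of the 106 loci that fell against Col-0, 56 were also lower than in abo4-1 and none higher, and both comparisons share the libraries of the line. The count of 327 was 79, 572 and 82 without replicate 1, 2 or 3 of the line, and 119 and 91 without replicate 1 or 3 of abo4-1.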

How the data were processed

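The authors deposited unscaled counts of reads for each locus, which per the file headers were made with a counter called sam2pkm that removed reads with equally good further hits. In all 12 libraries the counts summed to the mapped reads minus the removed ones. Per the labels' protocols the libraries were stranded, single-end, sized after mRNA selection and read on an Ion Torrent Proton. The submitters' processing notes name TAIR10 as the genome, and the aligner is not given in the sources used here. Genes with near-identical copies are undercounted by that step. Of the loci, 97.7% matched the RefSeq TAIR10.1 annotation, which gave coordinates, names and products, while promoters were read from its genome. Transcript lengths are those in the deposited count files.

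The count test was edgeR 4.0.16 (quasi-likelihood, robust) in R 4.3.3. It used the 19924 loci left by filterByExpr, TMM scaling and 1 term for each of the 4 genotypes over the 12 libraries, whose counted reads ran from 10902547 to 29456111. The common biological coefficient of variation was 0.226. The 3 contrasts set DPB2oe1.11.5 against each other genotype, and calls were made at a Benjamini-Hochberg adjusted p under 0.05. CPM values are counts per 1000000 reads of TMM-scaled library size. Each SE is the absolute log2 fold change divided by the square root of the quasi-likelihood F statistic. It is not a direct estimate, and it is approximate at low counts, where the log2 value depends on a prior count. Intervals and floors for low counts cover counting error only.

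Alternatives were DESeq2 1.42.0, other scalings and filters, a clock covariate, a fit of only the groups compared, a replicate block, transcript length offsets and the omission of libraries. Members and lists were chosen with earlier results of these data known. Genes were named by rule: polymerase subunits, the 12 largest rises and 12 largest falls among non-overlapping called loci with a mean of at least 10 CPM in the higher group, the 10 lowest adjusted p, up to 4 called members of each list or else the 2 of lowest p, called loci with at most 3 counts in a group, clock markers and the 4 largest differences in each direct contrast. Further genes are said to be named later where they first occur, and ATM, ATR, SOG1, RSL2, RHD6, FLC, the superoxide dismutases and SPL7 were named as list members for their role.

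Between DPB2oe1.11.5 and abo4-1, same-number correlations of deviations from the group means were 0.13, 0.537 and 0.333. Replicate 1 of the line correlated with abo4-1 replicate 3 at 0.298, and replicate 3 with abo4-1 replicate 1 at 0.122. The other different-number values ran from -0.448 to -0.18. The labels name no shared batch, and these values do not establish a pairing. Replicate 2 was the library of highest LHY in both groups (217 and 173 CPM). A replicate block gave 422 calls in place of 327.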

Additional observations from a re-analysis of the deposited data

Results flagged for a closer look

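Each gene below differed between DPB2oe1.11.5 and another genotype in the test of that difference, and the value is the log2 fold change of DPB2oe1.11.5 minus that genotype. No explanation was weighed.

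Against DPB2oe12.1.5, AT5G33251 differed by 6.73 (adjusted p = 0.00248), AT2G05040 by 5.03 (0.00178), CYP78A8 by -2.40 (0.00583) and AT1G30870 by -1.60 (0.0114), all by edgeR.

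Against abo4-1, DPB2 differed by 4.81 (adjusted p = 4.21e-07), the floral repressors MAF4 by 1.73 and MAF5 by 2.81, and the pseudogenes AT5G33251 by 8.73, AT2G05040 by 4.6 and AT2G05030 by 5.37. The 2 largest of these fitted values depend on the prior count, since abo4-1 held 3 counts of AT5G33251 and 1 of AT2G05030. The damage and salvage genes SMR7 (-2.12), PARP2 (-1.35), BRCA1 (-0.79), GMI1 (-1.27), XRI1 (-1.18) and TK1a (-1.36) were lower in the line than in abo4-1, as was AT5G60250 (-2.69).

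Of the 106 loci that fell against Col-0, 56 were also lower than in abo4-1, and both contrasts share the libraries of the line. The copper genes differed by -1.24 for CCH, -1.17 for COPT6 and -0.91 for COPT5. The U3 copies differed by -2.77 for U3B and -3.04 for U3D. Wall and transfer proteins differed by -1.41 for AGP2, -1.77 for EXPA7, -2.01 for XTH14, -1.84 for LTP2, -1.52 for LTP6 and -1.88 for AT1G48750. The peroxidases differed by -1.50 for AT1G30870, -2.11 for AT2G18150, -1.68 for AT2G38390 and -1.83 for AT5G17820. The aquaporins differed by -1.17 for TIP4;1 and -1.35 for PIP2E. Stress genes differed by -0.89 for PP2CA, -1.99 for HCHIB and -1.14 for ERF4. PSAK differed by -1.18, CYP78A8 by -1.49, AT1G67865 by -1.67, AT2G22425 by -1.09, AT3G61980 by -1.55, AT5G03460 by -0.77 and AT5G44550 by -1.48. Adjusted p-values of the genes named against abo4-1 ran up to 0.0432 (PSAK) by edgeR.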

How the results depend on the processing

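Counts of calls differed between settings. Against Col-0, where the main counts were 141 in all, 35 higher and 106 lower, DESeq2 gave 645, 164 and 481, a clock score covariate 621, 144 and 477, and the fit without the 4 libraries of highest LHY 925, 291 and 634. No filter on low counts gave 215 and 58 higher, only the 2 groups compared 221 and 187 lower, and transcript length offsets, chosen after seeing the data, 68 and 36 lower. Leaving out 1 library gave 21 to 286 calls, 13 to 75 higher and 8 to 211 lower. Against DPB2oe12.1.5 (6 calls) DESeq2 gave 670, the clock covariate 134, no filter 115, only the 2 groups compared 1, the fit without the high-LHY libraries 1042, and leaving out 1 library 3 to 1119. Against abo4-1 (327) the same settings gave 923, 989, 467, 103 and 1065, and leaving out 1 library 79 to 572. RLE and upper-quartile scaling and a filter at 1 CPM kept each count within 1.5 times. The cause of these shifts was not tested, except that fewer samples enter where libraries are left out. The replicate block gave 184 calls against Col-0 (38 higher, 146 lower), where same-number correlations were -0.211, -0.219 and 0.127. It gave 17 against DPB2oe12.1.5, with correlations of -0.109, 0.297 and 0.281. The labels name no shared batch, and whether replicates of 1 number shared any was not tested. The shift of the 10 most abundant loci was -5.32 percentage points, and -5.36 over nuclear-encoded reads. With 3 libraries a group no permutation p can fall below 0.1. Genes under about 3 counts a library have little precision.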
